A study of Mus musculus with 19 samples.

Results

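miR-10a and miR-10b are a pair of closely related microRNAs (miRNAs) whose genes lie inside the Hoxb and Hoxd clusters, and both were present in mouse hippocampal CA1 tissue. The members comprised 4 of the 1148 mature miRNA rows, namely the 5p and 3p arms of each precursor. The rows were taken by name, but the family itself was selected on measured values, the higher CPM of miR-10a-5p in aged than in young vehicle libraries. The age values are therefore given as a description, with no test. Of the 4 rows, the 2 5p arms passed the filter on low counts and the 2 3p arms did not.

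Small RNA was sequenced from microdissected CA1 tissue of wild-type (WT) C57B/6JRj mice. There were 6 libraries of aged mice (20 months) on SAHA, 5 of aged mice on vehicle (20 months) and 8 of young mice on vehicle (3 months). SAHA (vorinostat), an inhibitor of histone deacetylases, was given orally in water (0.67 g/L), and all groups, SAHA included, received cyclodextrin, the vehicle (18 g/L). The aged animals were treated for 4 weeks, the labels give no duration for the young ones, and nothing in them says whether each library is a separate animal, so p-values measure the spread between libraries. Reads assigned to miRNAs totalled 4211365 to 5410804 in the SAHA group, 4642434 to 5249168 in aged vehicle mice and 3585489 to 6808281 in young mice. Neuronal miRNAs, as CA1 tissue should hold, were abundant in each library: the 16 rows of a neuron list (miR-9, miR-124, miR-128, miR-129, miR-138 and miR-218) summed to 71355 to 77541 CPM in SAHA libraries, 83908 to 88849 CPM in those of aged vehicle mice and 83015 to 93199 CPM in those of young mice. CPM is the usual count scaled to a common library size, here after TMM scaling of the libraries.

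A miRNA guides the silencing complex to messenger RNAs that pair with its seed, the bases near its 5′ end. The miR-10 genes sit among Hox genes, which set position along the body axis, and in vertebrate embryos they are expressed with their Hox neighbours in posterior tissue rather than in forebrain. In adult tissues miR-10a and miR-10b are found in blood vessel walls and several other non-neural tissues, and Hox messenger RNAs are among their described targets, Hoxd10 for miR-10b in human breast cancer cells being one.

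The 5p arms of the pair are shown first, because one base separates the 2 rows on which all values below rest. RefSeq annotations on GRCm38.p6 gave a mature sequence for each of the 4 members. Capitals mark the seed, bases 2 to 8 from the 5′ end.
miR-10a-5p: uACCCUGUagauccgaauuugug
miR-10b-5p: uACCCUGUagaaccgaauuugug
miR-10a-3p: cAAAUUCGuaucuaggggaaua
miR-10b-3p: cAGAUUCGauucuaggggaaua
With miR-10a-5p as the starting point and positions counted from 1 at the 5′ end, the only difference between the 5p arms was U12A, outside the seed. The 3p arms differed by A3G, U9A and A10U, the first of them within the seed. Among 1679 mature mouse names in the RefSeq table, the seed ACCCUGU occurred in miR-10a-5p and miR-10b-5p alone. Reads of the pair differ by 1 base in 23, so a read with an error at that base could be counted for the other gene, and the settings that the authors used for such reads are not given in the sources used here.

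The precursors are shown with both mature arms in capitals, since nearly all reads came from the first arm.
Mir10a hairpin: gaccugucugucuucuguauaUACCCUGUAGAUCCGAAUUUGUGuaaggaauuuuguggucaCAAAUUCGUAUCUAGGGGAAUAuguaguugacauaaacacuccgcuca
Mir10b hairpin: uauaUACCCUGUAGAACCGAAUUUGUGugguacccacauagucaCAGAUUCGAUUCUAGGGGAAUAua
On GRCm38, Mir10a lies at chr11:96317165-96317274 on the plus strand, in no annotated GENCODE M21 gene other than its own. The gap to the start of Hoxb4, downstream on the same strand, is 992 bases, and the gap to the end of Hoxb5, upstream, is 11043 bases. Mir10b lies at chr2:74726070-74726137 on the plus strand, within introns of 2 Hoxd4 transcripts and 1 Hoxd3 transcript, and overlaps no exon of either.

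The 5p arm made up nearly all reads of both precursors. Over the 19 libraries, miR-10a-5p had 20573 counts and miR-10a-3p had 11, so the 3p arm was 0.0534% of the pair (95% Clopper-Pearson interval 0.0267% to 0.0956%). miR-10b-5p had 14871 counts and miR-10b-3p had 2, a 3p share of 0.0134% (0.00163% to 0.0486%). No library held more than 3 counts of a 3p arm, and 8 libraries held any for miR-10a and 2 for miR-10b, so these arms could not be compared between groups at this depth. By mean CPM, miR-10a-5p ranked 164 and miR-10b-5p ranked 174 of 1148 names. Counting error was small beside the spread between libraries: the lowest count, 160 reads of miR-10b-5p in young vehicle 5, was 23.5 CPM before scaling (95% interval 20.0 to 27.4), and the highest, 3274 reads in aged SAHA 1, was 605 CPM before scaling (585 to 626). Such intervals cover counting error only, because reads without molecular identifiers are not independent molecules.

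miR-10a-5p was high in both aged groups and low, with little spread, in young animals. In the 6 aged SAHA libraries it ran from 169 to 553 CPM with a median of 307 CPM. In aged vehicle libraries 1 to 5 it was at 224, 388, 125, 237 and 171 CPM. In the 8 young vehicle libraries it ran from 97.0 to 160 CPM with a median of 130 CPM. All SAHA libraries lay above all young ones, and 4 of 5 aged vehicle libraries did, the exception being aged vehicle 3. In bulk tissue, more cells that carry a miRNA and more of it per cell cannot be told apart.

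The age difference that drew attention to the family was a log2 fold change of 0.88 ± 0.26 (SE) for miR-10a-5p, with 229 ± 99.7 CPM in aged vehicle and 124 ± 20.8 CPM in young vehicle (mean ± SD, n = 5 and 8). Of the 509 miRNAs tested for age by the edgeR quasi-likelihood test, 2.16% passed an adjusted p of 0.05, and nothing is read from that share for the pair. Without aged vehicle 2, the highest of its group, the age value of miR-10a-5p was 0.62, the lowest over the fits that left out 1 library.

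Aged animals given SAHA were compared with aged animals given vehicle to ask what the inhibitor changes at that age. miR-10a-5p had 317 ± 134 CPM with SAHA and 229 ± 99.7 CPM with vehicle (mean ± SD, n = 6 and 5), a log2 fold change of 0.47 ± 0.28 that did not pass (adjusted p 0.388, edgeR quasi-likelihood test over 509 miRNAs), and the groups overlapped. In this comparison 4.32% of tested miRNAs were called by edgeR, and 46 and 47 of the 509 by DESeq2 and limma-voom. Of the 2 tested members 0 were called by edgeR, DESeq2 or limma-voom, and 0 had an unadjusted p under 0.05 by edgeR. The aged vehicle libraries enter both this comparison and the age values, so the 2 are not independent.

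Against young vehicle animals, aged SAHA animals held more miR-10a-5p, with all 6 SAHA libraries above all 8 young ones. The log2 fold change was 1.35 ± 0.25 (SE), a 2.56-fold higher level. It is the sum of the age value that selected the family (0.88) and the SAHA value that did not pass (0.47), so it is given as a description, with no test. By edgeR 13.9% of tested miRNAs were called in this comparison and 5.30% were called higher, and 0.982% were higher without overlap between the groups. Nothing is read from these shares for miR-10a-5p. With miR-10a-5p and miR-10b-5p summed into 1 row the value was 0.86 ± 0.40.

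**Figure D1:**
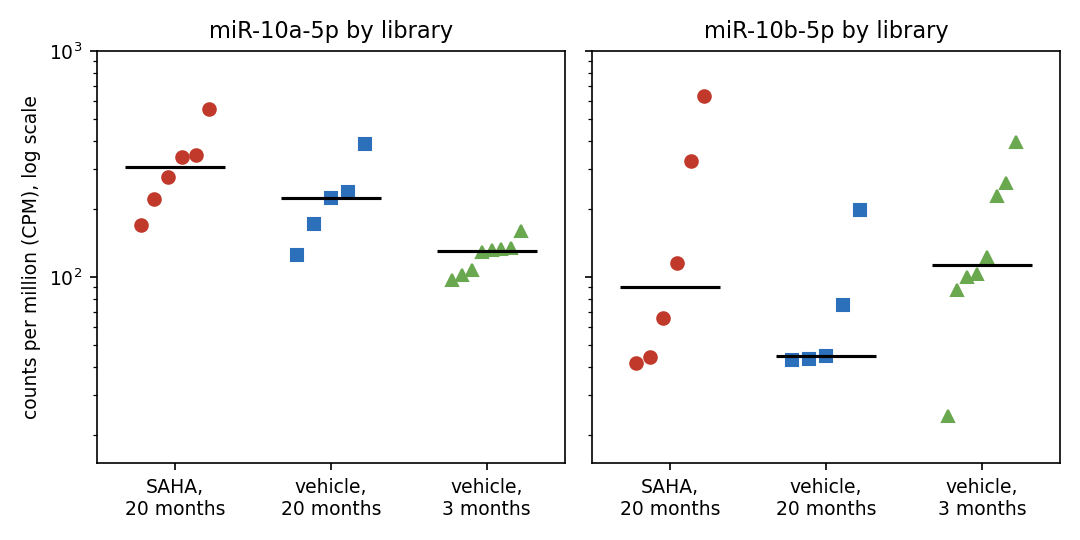
CPM of miR-10a-5p (left) and miR-10b-5p (right) in each library on a log axis, for SAHA at 20 months (6 libraries), vehicle at 20 months (5) and vehicle at 3 months (8); points are libraries sorted by value and bars are medians. For miR-10a-5p all SAHA libraries, from 169 CPM, lie above all young ones, up to 160 CPM, while for miR-10b-5p all groups overlap and span 24.3 to 631 CPM.

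miR-10b-5p had a wide spread inside every group. In the aged SAHA libraries it ran from 41.6 to 631 CPM with a median of 90.6 CPM. In aged vehicle libraries 1 to 5 it was at 43.4, 197, 44.8, 42.9 and 75.0 CPM. In the young vehicle libraries it ran from 24.3 to 396 CPM with a median of 113 CPM. The groups overlapped in each comparison. Aged SAHA 1 and 3 stood at 631 and 325 CPM and the other SAHA libraries at or below 115 CPM, aged vehicle 2 stood alone in its group, and young vehicle 1, 2 and 4 stood at 228, 261 and 396 CPM, above the other young libraries.

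No difference of miR-10b-5p passed the test. Its log2 fold change was 1.34 ± 0.80 for SAHA against aged vehicle (adjusted p 0.388) and 0.31 ± 0.68 for aged SAHA against young vehicle (adjusted p 0.782), both by the edgeR quasi-likelihood test. The age value, given as a description, was -1.03 ± 0.76. Standard errors of this size leave differences of several fold undetectable with these numbers of libraries. Without aged SAHA 1 the value against young vehicle changed sign to -0.47, and with aged SAHA 1, aged SAHA 3 and aged vehicle 2 all left out, an alternative added after seeing the values, the SAHA value was 0.36 ± 0.67 (adjusted p 0.799, edgeR) and that against young vehicle -1.31 ± 0.59 (adjusted p 0.144). Over all alternatives the adjusted p for SAHA against aged vehicle ran from 0.187 to 0.799, and that against young vehicle from 0.144 to 0.963.

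The ratio of the 2 arms within a library does not depend on scaling. Reads of miR-10b-5p per read of miR-10a-5p ran from 0.1504 to 1.14 in the aged SAHA libraries with a median of 0.366. They were 0.194, 0.507, 0.359, 0.181 and 0.438 in aged vehicle libraries 1 to 5. They ran from 0.237 to 2.48 with a median of 0.975 in the young vehicle libraries. Thus miR-10b-5p was the more abundant of the pair in 1 of 6 aged SAHA libraries, 0 of 5 aged vehicle libraries and 4 of 8 young vehicle libraries. The mean ratio was 0.528 ± 0.413 with SAHA and 0.336 ± 0.145 with aged vehicle (SD, n = 6 and 5), and these did not differ beyond their spread (exact two-sided permutation test, p = 0.424). The aged vehicle libraries also enter the age values that selected the family, through miR-10a-5p, so this test is not independent of that choice. The mean in young vehicle was 1.246 ± 0.738 (SD, n = 8), which is described only, because it enters the age contrast.

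**Figure D2:**
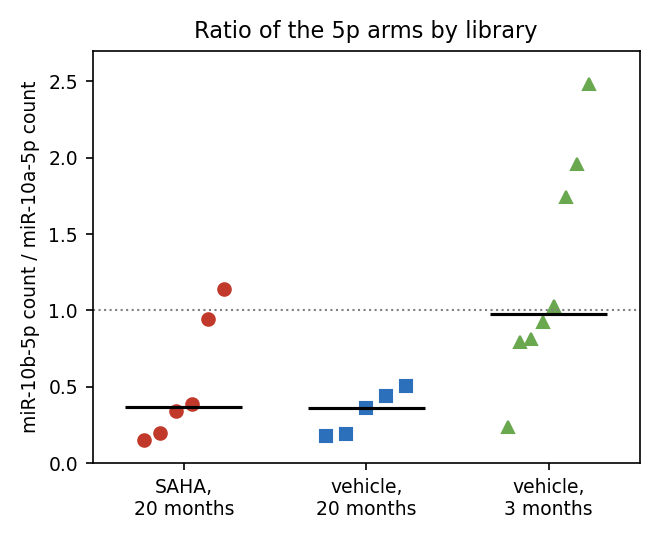
Ratio of the raw counts of miR-10b-5p to miR-10a-5p in each library, by group, on a linear axis from 0; bars are medians and the dotted line marks equal counts. The 5 aged vehicle libraries lie between 0.181 and 0.507, whereas 4 of the 8 young libraries lie above 1.

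In the main fit miR-10b-5p varied more between libraries of a group than any other tested miRNA, by a small margin. Its biological coefficient of variation, the within-group spread that edgeR estimates beyond counting noise, was 0.832, and it ranked 1 of 509. The next was miR-5105 at 0.826, followed by miR-5115 at 0.682, and the median over the tested miRNAs was 0.135. miR-10a-5p had 0.315 and ranked 21. Mural and mesenchymal miRNAs were also among the 12 most variable, with miR-143-5p at 0.464, miR-143-3p at 0.422 and miR-199a-5p at 0.378, as was the myeloid miR-223-3p at 0.483. The rest of the 12 were miR-1247-5p (0.587), miR-5097 (0.522), miR-5109 (0.519), miR-184-3p (0.500) and miR-205-5p (0.444). Outside the 12, tested vessel-wall rows (listed below) ran from 0.128 for miR-126-3p to 0.345 for miR-145-5p, and tested myeloid rows from 0.157 to 0.326. miR-10b-5p ranked 1 in 9 of the 19 fits that left out 1 library and 2 in the rest. It ranked 2 with scaling by library totals alone and 6 with no filter on low counts. It ranked 3, with a coefficient of 0.606, when aged SAHA 1, aged SAHA 3 and aged vehicle 2 were left out together.

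**Figure D3:**
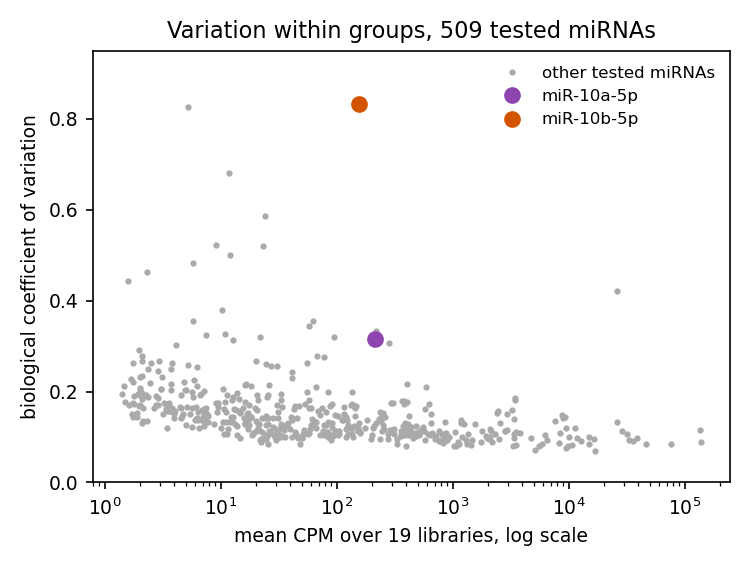
Biological coefficient of variation against mean CPM (log axis) for 509 tested miRNAs, estimated within groups over 19 libraries; each grey point is a miRNA. miR-10b-5p lies at 0.832, above the other miRNAs around its abundance, and miR-10a-5p at 0.315.

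Within the SAHA and the young group the pair varied together. Over all 19 libraries the log2 CPM of miR-10a-5p and miR-10b-5p gave a Pearson r of 0.355 and a Spearman rho of 0.219. Without the 2 libraries farthest from the median of miR-10a-5p, aged SAHA 1 and aged vehicle 2, r was 0.039. These pooled values carry the age difference that selected the family, so they are given as a description, with no test. Within the 6 aged SAHA libraries r was 0.825 (exact permutation p 0.0417) and rho 0.771 (exact permutation p 0.103). Within the 8 young vehicle libraries r was 0.791 (exact permutation p 0.0145) and rho 0.905 (exact permutation p 0.00456), and r was 0.826 without the 2 libraries farthest from the median. With group means removed r was 0.722 over 19 libraries, and 0.777 without the 2 farthest. The 5 aged vehicle libraries were too few for a value of their own. As an example picked after the values were seen, aged SAHA 3 and young vehicle 4 had 325 and 396 CPM of miR-10b-5p, but 344 and 160 CPM of miR-10a-5p.

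**Figure D4:**
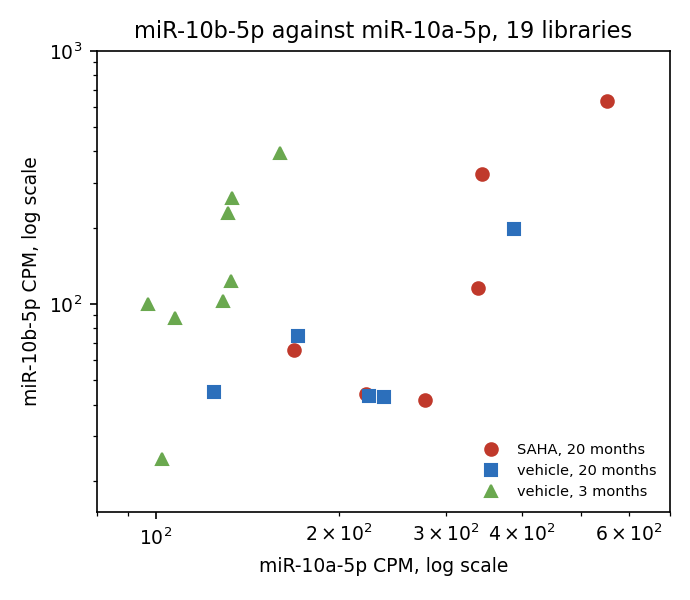
miR-10b-5p CPM against miR-10a-5p CPM on log axes, 1 point per library, marked by group. The 8 young libraries form a steep band to the left, between 97.0 and 160 CPM of miR-10a-5p, and all aged libraries but 1, aged vehicle 3 at 125 CPM, lie to the right of them.

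miR-10b-5p followed miRNAs of the vessel wall from library to library. By the rule for likeness (Pearson r of log2 CPM over 19 libraries among tested miRNAs, given as a description) its 5 nearest were miR-143-3p (r 0.873) and miR-145-5p (0.866), the smooth muscle pair made from 1 transcript, miR-145-3p (0.826), and miR-199a-3p and miR-199b-3p (0.816 and 0.814), which are expressed in mesenchymal and mural cells. The last 2 share 1 mature sequence, and their counts stood at 2.0 to 2.05 to 1 in every library, so they count as 1 observation. With group means removed the r values of these 5 were 0.812 to 0.892. In the order given they then ranked 3, 4, 2, 7 and 8 among the other tested miRNAs, and a miRNA outside these 5 ranked 1. The endothelial miR-126-3p had an r of 0.681 and miR-126-5p 0.473 with miR-10b-5p. The 3 most opposed were miR-488-5p (-0.763), miR-421-3p (-0.760) and miR-337-5p (-0.732). All of these values share libraries, scaling and depth.

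The summed CPM of the 12 vessel-wall rows (miR-126, miR-143, miR-145, miR-199a, miR-199b and miR-214, both arms), which miR-143-3p dominates, fell into 2 ranges. Libraries aged SAHA 1, aged SAHA 3, aged vehicle 2 and young vehicle 4 had 53317 to 65734 CPM, and the other 15 had 26062 to 39118 CPM. The first 4 held 197 to 631 CPM of miR-10b-5p, and the 15 held 24.3 to 261 CPM. Within the 15, a split added after the gap was seen, r of log2 values was 0.788 (permutation p 0.00037) and rho 0.686 (permutation p 0.00611). Over all 19, r was 0.867 (permutation p 1e-05, the smallest that 100000 resamples can give, adjusted 0.00021 over 21 relations), rho was 0.835 (permutation p 4e-05, adjusted 0.00084), and r was 0.839 without the 2 libraries farthest from the median sum. Within aged SAHA r was 0.912 (n = 6, exact permutation p 0.0528), and within young vehicle 0.835 (n = 8, exact permutation p 0.0162). The part of vessel content in the miR-10b-5p values was not tested.

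For miR-10a-5p the same sum gave a Pearson r of 0.445 and a rho of 0.165 over 19 libraries, and an r of 0.699 with group means removed. Within aged SAHA r was 0.733 (n = 6, exact permutation p 0.129), and within young vehicle 0.753 (n = 8, exact permutation p 0.023). Within the 15 libraries of the lower range, across groups, r was -0.378 and rho -0.332. With group means removed, miR-143-3p and miR-145-5p had r values of 0.726 and 0.716 with miR-10a-5p and 0.885 and 0.858 with miR-10b-5p. Aged SAHA 5, an example picked after the values were seen, had 277 CPM of miR-10a-5p with a vessel-wall sum in the lower range. It lay above every young library, as did every other aged SAHA library, and that position carries the age difference that selected the family. The part of vessel content in the miR-10a-5p values was not tested. Of the 9 tested vessel-wall rows 0 passed in each of the 3 comparisons by edgeR, DESeq2 or limma-voom, with 0 at an unadjusted p under 0.05 by edgeR. Over all tested miRNAs edgeR called 4.32% for SAHA against aged vehicle, 13.9% for aged SAHA against young vehicle and 2.16% for age. The unadjusted shares were 19.4%, 32.8% and 15.7%. By DESeq2 46, 103 and 20 miRNAs were called in the same order, and by limma-voom 47, 83 and 26. With 9 rows, nothing is read from these counts. In the same order, the median log2 fold change of the 9 rows was 0.25, 0.13 and -0.11, beside -0.008, -0.028 and -0.003 over all tested miRNAs. The 9 rows count miR-199a-3p and miR-199b-3p, which share 1 mature sequence, as separate rows, so they are not all independent.

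**Figure D5:**
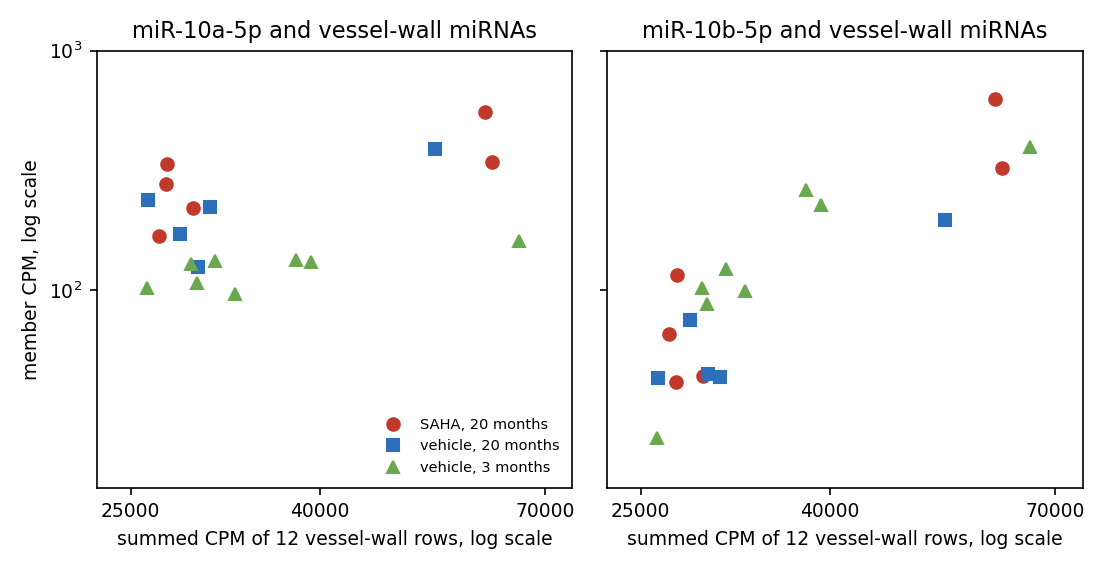
CPM of miR-10a-5p (left) and miR-10b-5p (right) against the summed CPM of the 12 vessel-wall rows, log axes, 1 point per library and a marker per group. The 4 libraries with sums of 53317 or more hold 197 to 631 CPM of miR-10b-5p, and r over 19 libraries is 0.867 for miR-10b-5p and 0.445 for miR-10a-5p (0.881 and 0.699 with group means removed).

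Over all 19 libraries, group differences included, the 5 miRNAs nearest to miR-10a-5p were miR-155-5p (r 0.852), an inflammation-induced miRNA, miR-93-5p (0.849) of the miR-106b-25 cluster, miR-203-3p (0.844), which is known from epithelium, miR-219-2-3p (0.832) of oligodendrocytes, and miR-146a-5p (0.809), a feedback inhibitor of NF-kB signalling. This order carries the age difference that selected the family. With group means removed their r values were 0.520 to 0.711, below those of miR-143-3p and miR-145-5p, and among all tested miRNAs they ranked 18 (miR-155-5p), 15 (miR-93-5p), 14 (miR-203-3p), 9 (miR-219-2-3p) and 46 (miR-146a-5p). Log2 fold changes for aged SAHA against young vehicle, a description since the choice of these 5 used the same libraries, ran from 0.34 ± 0.08 for miR-93-5p to 1.68 ± 0.31 for miR-155-5p. The 3 most opposed were miR-1983 (-0.827), the imprinted miR-127-3p (-0.757) and miR-673-5p (-0.746).

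Marker lists of other cell types were set beside the pair by their summed CPM. For miR-10a-5p, values over all 19 libraries carry the age difference that selected it and have no test here, and p-values within groups are unadjusted. With the oligodendrocyte rows r was 0.776 over 19 libraries, 0.581 without the 2 libraries farthest from the median and 0.668 with group means removed. Within aged SAHA r was 0.838 (n = 6, exact permutation p 0.0375), but rho was 0.6 (exact permutation p 0.242). Within young vehicle r was -0.115 (n = 8, exact permutation p 0.774). With the myeloid rows r was 0.754, 0.626 without the 2 farthest libraries and 0.729 with group means removed. Within aged SAHA r was 0.927 (n = 6, exact permutation p 0.0167), but rho was 0.714 (exact permutation p 0.136). Within young vehicle r was 0.271 (n = 8, exact permutation p 0.501). The difference between the SAHA and young groups was not tested. Aged SAHA 1 had the highest oligodendrocyte sum (8102 CPM), myeloid sum (4748 CPM) and miR-10a-5p (553 CPM) of its group, and r is sensitive to such a library. With the muscle rows r was 0.615, 0.361 without the 2 farthest libraries and 0.690 with group means removed, and it was 0.792 within aged SAHA (n = 6, exact permutation p 0.0417) and 0.845 within young vehicle (n = 8, exact permutation p 0.00856). The rho values for muscle were 0.943 within aged SAHA (exact permutation p 0.0167) and 0.786 within young vehicle (exact permutation p 0.0279).

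Other relations of miR-10a-5p changed size or sign once group means were removed. With the neuron rows r was -0.701, and -0.370 with group means removed. With the lymphocyte rows it was -0.694 and 0.171. With the epithelial miR-200 rows it was -0.453 and 0.431, and within aged SAHA it was 0.869 (n = 6, exact permutation p 0.00972). Within young vehicle the miR-200 rows gave an r of -0.2 (n = 8, exact permutation p 0.637). With the choroid plexus and ependyma, erythrocyte, and gut, liver and kidney rows r over 19 libraries was 0.179, -0.265 and -0.069. miR-10b-5p correlated with the choroid plexus and ependyma rows (r 0.719, adjusted permutation p 0.00168) and the muscle rows (r 0.804, adjusted permutation p 0.00035), and with group means removed these were 0.702 and 0.861. Its other 7 list relations had an adjusted permutation p of 0.14 or more for r. Among these, the miR-200 rows gave an r of 0.929 within aged SAHA (n = 6, unadjusted exact permutation p 0.0194). Their rho there was 0.771 (unadjusted exact permutation p 0.103). Their r was 0.076 within young vehicle (n = 8, unadjusted exact permutation p 0.855) and 0.588 with group means removed. The part of these cell types in the miR-10 values was not tested.

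The 9 lists held called rows at about the background share. By edgeR 3 of 56 tested rows (5.36%) were called for SAHA against aged vehicle, beside 4.32% of all tested miRNAs, 8 (14.3%) for aged SAHA against young vehicle, beside 13.9%, and 1 (1.79%) for age, beside 2.16%. In the choroid plexus and ependyma list (12 tested) 0 passed in each comparison, with 1, 1 and 0 at an unadjusted p under 0.05 for SAHA against aged vehicle, aged SAHA against young vehicle and age, and 0 by DESeq2 or limma-voom. In the erythrocyte list (5 tested) 0 passed, with 1, 2 and 2 at an unadjusted p under 0.05, and 1, 1 and 0 by DESeq2 and 0 by limma-voom. In the gut, liver and kidney list (4 tested) 0 passed, with 0, 2 and 1 at an unadjusted p under 0.05 and 0 by the other tools. For SAHA against aged vehicle, miR-1a-3p of muscle rose (1 of 2 tested) and miR-9-3p and miR-128-3p of neurons fell (2 of 16), and the same 3 passed in the same directions for aged SAHA against young vehicle. Also against young vehicle, miR-142-5p of the myeloid list (1 of 5) and miR-219-2-3p of the oligodendrocyte list (1 of 5) rose, and miR-150-5p of lymphocytes (1 of 2) and miR-200b-3p and miR-429-3p of the epithelial miR-200 list (2 of 5) fell. For age, miR-150-5p fell (-0.36 ± 0.07, adjusted p 0.00223, edgeR). The other tools called more rows in some lists: limma-voom called 1 lymphocyte and 1 miR-200 row for SAHA against aged vehicle and 2 miR-200 rows for age, where edgeR called 0. DESeq2 called 1 oligodendrocyte row for SAHA against aged vehicle, and 3 against young vehicle where edgeR called 1. Both tools called 3 neuron rows against young vehicle, where edgeR called 2, and 1 neuron row for age, where edgeR called 0. These tools also called more over all tested miRNAs. For SAHA against aged vehicle, aged SAHA against young vehicle and age, DESeq2 called 46, 103 and 20. In that order limma-voom called 47, 83 and 26, and edgeR 22, 71 and 11. Nothing is read from the extra calls in the lists. Median log2 fold changes for aged SAHA against young vehicle were 0.32 for the myeloid list, 0.38 for oligodendrocytes, -0.14 for neurons, -0.47 for the miR-200 list, -0.65 for lymphocytes, 0.51 for muscle, -0.07 for choroid plexus and ependyma, -0.22 for erythrocytes and -0.13 for gut, liver and kidney, beside -0.03 over all tested miRNAs.

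The other miRNAs of the Hox clusters were all but missing. The 7 rows of miR-196a, miR-196b and miR-615 included 4 with no count in any library, and none passed the filter. Over all libraries of a group, miR-196a-5p, known for cleavage of Hoxb8 messenger RNA, had 1 count with SAHA, 4 in aged vehicle and 1 in young vehicle. miR-196b-5p had 3, 1 and 0 counts in the same groups. miR-615-3p, from an intron of Hoxc5, had 12 counts in 5 of 6 aged SAHA libraries, 7 counts in 4 of 5 aged vehicle libraries and 1 count in 1 of 8 young vehicle libraries. Most libraries lay under the floor of 3 counts, and no fold is given.

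The miR-99 and miR-100 5p arms are the nearest relatives of the pair in sequence and were far more abundant, so they are shown for contrast with the seed in capitals.
miR-100-5p: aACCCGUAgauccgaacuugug
miR-99a-5p: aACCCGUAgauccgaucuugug
miR-99b-5p: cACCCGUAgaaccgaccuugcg
After removal of 1 base from miR-10a-5p, at position 6, miR-100-5p differed from it at 2 of 22 positions, miR-99a-5p at 3 and miR-99b-5p at 5, and the 3 share the seed ACCCGUA, which is not that of the miR-10 pair. miR-100-5p averaged 3553 ± 920 CPM with SAHA, 3828 ± 853 CPM in aged vehicle and 3167 ± 387 CPM in young vehicle (SD, n = 6, 5 and 8). miR-99a-5p averaged 1735 ± 221, 2054 ± 167 and 2081 ± 91.2 CPM, and miR-99b-5p 7749 ± 1015, 10101 ± 1999 and 9876 ± 1153 CPM, in that order of groups. In aged SAHA against young vehicle, where miR-10a-5p was higher, miR-99a-5p fell by 0.26 ± 0.07 (adjusted p 0.0135, edgeR) and miR-99b-5p by 0.35 ± 0.11 (adjusted p 0.0342) on the log2 scale, and miR-100-5p had 0.17 ± 0.14 (adjusted p 0.429). Of the 6 rows of both arms 2 passed in that comparison, beside 13.9% of all tested miRNAs called and 8.64% called lower. For SAHA against aged vehicle 0 of 6 passed by edgeR, with 2 at an unadjusted p under 0.05, 2 by DESeq2 and 1 by limma-voom, and for age 0 passed by any of these tools. The edgeR shares over all tested miRNAs were 4.32% and 2.16% in these comparisons. DESeq2 called 46 and 20 of all tested miRNAs there, and limma-voom 47 and 26. Nothing is read from counts over 6 rows. Their coefficients of variation were 0.0986 to 0.181, against 0.315 and 0.832 for miR-10a-5p and miR-10b-5p.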

How the data were processed

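Each deposited file lists counts, whole numbers of reads for every mature miRNA, and the values carry no normalisation by the authors. The submitters' processing notes name CASAVA 1.8.2, cutadapt, STAR, HTSeq and mm10, without order or settings. The 4 summary lines of each file were 0 and left out. After filterByExpr (10 reads, total 15), 509 of 1148 miRNAs were scaled by TMM and fitted over all 19 libraries with edgeR 4.0.16 in R 4.3.3 (robust quasi-likelihood F test, 1 term per group, Benjamini-Hochberg adjustment over all tested miRNAs, threshold 0.05). The standard error is the size of the log2 fold change divided by the square root of F. Log2 CPM for correlations used a prior count of 2, and permutation tests used 100000 resamples, or all orders in groups under 10. No library appeared to be a copy (chi-square per degree of freedom 26.6 to 319 over 53 pairs). The fit was tested on simulated data. Members, lists and tests were chosen with earlier results of these data known. The rule named the members, the Hox-linked and miR-99/miR-100 rows, the 5 highest and 3 lowest by r with each 5p member, and abundant rows of each marker list. Rows named because they were called or most variable, and miR-126, were added after their values were seen. Alternatives were other scalings, filters and tools (DESeq2 1.42.0, limma 3.58.1), summed copies, left-out libraries and a replicate block.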

Additional observations from a re-analysis of the deposited data

Results flagged for a closer look

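Single libraries stood far from the rest of their group in 5 of the 39 group summaries checked. The rule marks about 1 in 20 for independent, normally distributed values. All flags came from aged vehicle 2 and young vehicle 4, in values that correlate, so no excess is read from the count. miR-10b-5p was at 196.9 CPM in aged vehicle 2, beside 42.9 to 75.0 CPM for the rest of that group. The vessel-wall rows summed to 53320 CPM in the same library (others 26100 to 30430 CPM) and its muscle rows to 106.1 CPM (others 69.9 to 78.6 CPM). In young vehicle 4, which had the highest miR-10b-5p of its group, the vessel-wall rows summed to 65730 CPM (others 26060 to 39120 CPM) and the muscle rows to 128.4 CPM (others 69.8 to 94.99 CPM).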

How the results depend on the processing

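Over 295 recomputed values, 276 kept their direction and side of the threshold or moved little. Many could hardly change, because leaving out a library outside a comparison barely moves its value. Values that did not pass also count as kept when they still do not pass, so the share does not measure robustness. For miR-10b-5p in aged SAHA against young vehicle the direction reversed without aged SAHA 1 (-0.47), without aged SAHA 1 and young vehicle 6 (-0.55), without aged SAHA 1, aged SAHA 3 and aged vehicle 2 (-1.31) and with limma-voom (-0.61), and leaving out 1 library gave -0.47 to 0.62. Summing the pair gave 0.86 against young vehicle and 0.0965 for age. Against aged vehicle, leaving out 1 library gave 0.24 to 0.75 for miR-10a-5p and 0.56 to 1.999 for miR-10b-5p, none past the threshold by edgeR. For miR-10a-5p against young vehicle it gave 1.12 to 1.497. Calls for SAHA against aged vehicle numbered 22, with 46 by DESeq2, 47 by limma-voom, 37 without aged SAHA 1 and young vehicle 6, and 11 to 33 on leaving out 1 library (11 without aged SAHA 6, 33 without aged SAHA 1). Age calls numbered 11, with 20 by DESeq2, 26 by limma-voom, 19 with the compared groups alone and 18 without aged SAHA 1 and young vehicle 6. Higher calls for aged SAHA against young vehicle made up 38.0% with TMM, 47.5% under RLE scaling (as in DESeq2) and 60.7% under library totals, and for SAHA against aged vehicle 27.3%, 38.5% and 40.7%. The direction of both members was the same under these scalings. The correlation of the pair, 0.355 over all libraries, was 0.825 within aged SAHA and 0.791 within young vehicle. The cause of these shifts was not tested. Replicate numbers did not pair the samples (same-number correlation of deviations -0.317 to 0.314, and 2 of 16 libraries closest to their own number). With the replicate block miR-10a-5p had 1.33 against young vehicle, miR-10a-5p 0.49 and miR-10b-5p 1.04 against aged vehicle, and calls numbered 15, 58 and 8 for SAHA, SAHA against young and age. Counts below about 3 reads per library limit the 3p arms and the Hox-linked rows.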
